A study of Homo sapiens with 11 samples.

Results

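SQSTM1 and 9 further genes of the autophagy machinery were followed in MOLM-13 cells, a human acute myeloid leukemia line with a rearranged KMT2A gene. The 10 genes were SQSTM1, NBR1, TAX1BP1 and OPTN (cargo receptors), MAP1LC3B, GABARAP, GABARAPL1 and GABARAPL2 (Atg8 family proteins), WIPI1 (a phosphoinositide binding protein) and ULK1 (a kinase). They were taken by gene symbol from a table of raw fragment counts with 38557 genes, and all 10 symbols were found. Cells had been kept for 72 h in DMSO, with the Menin inhibitor MI-503 at 1 µM, or with the same dose of MI-503 plus PR-957 (ONX-0914) at 100 nM, which inhibits the immunoproteasome subunit PSMB8. There were 4 libraries with DMSO, 4 with MI-503 and 3 with both drugs, the combination (replicates 1, 2 and 4). All groups came from a single cell line, and no library with PR-957 alone was analysed here, so PR-957 was seen only on top of MI-503. The labels do not say whether replicates were separate cultures, so p-values measure the spread between these libraries, which may be technical.

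Macroautophagy encloses cytoplasmic cargo in a double membrane, the autophagosome, which fuses with lysosomes. The ULK1 kinase complex starts the process, and WIPI proteins bind the phosphoinositide made on the growing membrane. Atg8 proteins (the LC3 and GABARAP subfamilies) are then attached to its lipids. Cargo receptors bind ubiquitin-tagged proteins or organelles on one side and Atg8 proteins on the other. SQSTM1, also called p62, is the best known of them, and its protein also binds KEAP1, the adaptor through which the transcription factor NRF2 is degraded. Autophagy and the proteasome are the main routes of protein degradation in cells.

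In the combination, GABARAPL1 transcripts rose 8.77-fold over DMSO and 5.96-fold over MI-503, the largest change among the members that could be tested. ULK1, WIPI1, MAP1LC3B, TAX1BP1 and OPTN rose by smaller amounts in the combination over both other groups, as did NBR1 by 1.09-fold and 1.14-fold. GABARAP and GABARAPL2 were not called in either comparison of the combination. With MI-503 alone ULK1, WIPI1, GABARAP and GABARAPL1 rose, by 1.18-fold to 2.00-fold. SQSTM1 itself held 63 counts over all 11 libraries and could not be measured in these files. In bulk RNA such values cannot tell fewer cells of a type from less RNA per cell.

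The promoters of the 4 Atg8 genes are printed because these paralogs moved most unequally of the members. Each sequence is the RefSeq window (GRCh38.p14) from 250 bases before to 50 bases after the annotated start, written 5′ to 3′ along the gene. GABARAPL1 lies at chr12:10212627-10212926 (plus strand), GABARAP at chr17:7242400-7242699 (minus strand), GABARAPL2 at chr16:75566129-75566428 (plus strand) and MAP1LC3B at chr16:87392086-87392385 (plus strand). Capitals mark the matches to 5 short motifs that were searched on both strands.
GABARAPL1: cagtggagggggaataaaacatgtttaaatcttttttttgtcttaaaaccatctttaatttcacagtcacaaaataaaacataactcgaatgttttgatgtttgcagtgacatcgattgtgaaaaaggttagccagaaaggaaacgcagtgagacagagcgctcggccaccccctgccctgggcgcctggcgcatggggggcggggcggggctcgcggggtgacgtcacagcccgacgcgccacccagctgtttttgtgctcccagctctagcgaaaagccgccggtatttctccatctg
GABARAP: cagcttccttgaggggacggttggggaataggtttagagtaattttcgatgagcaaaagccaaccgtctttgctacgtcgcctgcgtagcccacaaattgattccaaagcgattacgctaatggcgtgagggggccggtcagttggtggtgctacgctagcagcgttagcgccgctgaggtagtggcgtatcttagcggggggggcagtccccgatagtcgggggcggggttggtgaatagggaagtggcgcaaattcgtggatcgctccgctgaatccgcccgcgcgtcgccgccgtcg
GABARAPL2: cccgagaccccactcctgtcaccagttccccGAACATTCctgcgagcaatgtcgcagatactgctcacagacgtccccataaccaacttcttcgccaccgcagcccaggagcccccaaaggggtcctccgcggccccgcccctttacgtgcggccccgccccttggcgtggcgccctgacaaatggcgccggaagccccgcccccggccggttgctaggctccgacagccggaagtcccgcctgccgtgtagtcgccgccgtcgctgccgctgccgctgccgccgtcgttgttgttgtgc
MAP1LC3B: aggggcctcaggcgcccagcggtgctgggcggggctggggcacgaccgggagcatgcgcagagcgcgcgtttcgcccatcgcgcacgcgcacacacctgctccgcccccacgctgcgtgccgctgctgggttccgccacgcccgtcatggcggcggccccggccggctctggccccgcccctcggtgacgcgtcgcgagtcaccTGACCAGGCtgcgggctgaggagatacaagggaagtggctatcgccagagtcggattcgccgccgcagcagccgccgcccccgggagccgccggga

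The motifs were TGACNNNGC (the core of the antioxidant response element bound by NRF2), CACGTG (the E-box bound by TFEB and TFE3), TGATGNAA (the element bound by ATF4 with C/EBP partners), GTAAACA (a forkhead site) and GAANNTTC (a unit of the heat shock element). Each of the 10 members had at least 1 window whose start site matched an exon end in the annotation behind the counts. The members had 15 windows in all, and matches were not counted for each window. TGACNNNGC was found once, in MAP1LC3B from base -46 relative to the start, beside 13.3% of the 35116 windows of all genes. GAANNTTC was found in GABARAPL2 from base -219 and in 1 window of TAX1BP1 from base -91, beside 6.77% of all windows. CACGTG, TGATGNAA and GTAAACA were in 0 of the 15 windows, and in 7.26%, 3.62% and 3.42% of all windows. The GABARAPL1 window held none of the 5, which says only that these letters do not occur within those 300 bases.

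Libraries held 18.89 to 41.15 M counted fragments, so that 3 counts stand for 0.0729 to 0.159 counts per M counted fragments (CPM). This limit uses unscaled totals and covers counting error only. By chi-square over genes, divided by its degrees of freedom, replicates 2 and 4 of the combination lay 6.19 apart, and pairs within DMSO or MI-503 2.09 to 8.12. Replicate 1 of the combination stood apart, at 27.9 and 48.0 from the other replicates of its group. The myeloid markers CD33, SPI1, FLT3, LYZ and CSF3R were counted in every library. They summed to 727 to 780 CPM in DMSO, 1054 to 1096 in MI-503, 1257 in replicate 1 of the combination and 2525 and 3227 in its replicates 2 and 4. LYZ, the lysozyme gene, makes up the difference between MI-503 (371 to 381 CPM) and the combination (599, 1812 and 2513 CPM), while FLT3 went the other way, from 324 ± 11.3 CPM in DMSO to 230 ± 2.56 in MI-503 and 193 ± 23.5 in the combination. CD33 and CSF3R were not called in the combination against MI-503, and SPI1 was called higher there (0.17 on the log2 scale, edgeR adjusted p = 0.0438), a call lost in 9 of the 11 fits that left out 1 library. Among markers of other cells, CD3E, HBB, EPCAM and ALB had 0 to 3 counts in each library and were not tested. COL1A1, a collagen gene of stromal cells, had 0.142 to 0.597 CPM in DMSO, 0.262 to 0.537 CPM in MI-503 and 0.633 to 0.992 CPM in the combination, and was called higher in the combination than in both other groups. Its log2 fold change over MI-503 was 1.13 (edgeR adjusted p = 0.0123) and, without replicate 1 of the combination, 0.88 (edgeR adjusted p = 0.0759). Over DMSO it was 1.17, and 0.97 without that replicate (edgeR adjusted p = 0.0465). The part of marker levels in the results below was not tested.

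SQSTM1 (chromosome 5, 179806393 to 179838078, plus strand, hg38) had 0, 2, 5 and 3 counts in DMSO replicates 1 to 4 and 3, 7, 5 and 2 in MI-503. In the combination it had 23, 8 and 5 counts in replicates 1, 2 and 4. The 3 groups overlapped in counts, and DMSO replicate 1, at 0, still allows up to 0.0968 CPM of its unscaled total. The gene did not reach the filter on low counts and was not tested.

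The annotation behind the counts lists all 11 merged exons of SQSTM1 at the same length a second time, on an extra contig of chromosome 5. Fragments that align to several places had not been counted. Of its exon bases 21.9% overlap MGAT4B or MRNIP, and fragments overlapping several genes had not been counted either. Of the 18 genes on that contig, 11 have every merged exon on both sequences. Of those 11, 10 had 63 counts or fewer in all libraries together, and the exception was MAML1 with 851 counts. SQSTM1 is 1 of these 10, since 63 is its own count. Of all 38557 genes, 11740 had no count in any library. Of the 18 genes, 12 had 100 counts or fewer. CANX and HNRNPH1, with 18 of 20 and 16 of 18 merged exons on both sequences, had 25790 and 23267 counts. MRNIP, the overlapping neighbor of SQSTM1, had 0. The sequence of the extra contig was not analysed here, so whether fragments were lost to it was not tested. The counts of SQSTM1 are therefore given without a level or a direction, and the other 9 members, each on 1 contig, carry the results.

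Each of these 9 had at least 26 counts in every library, so that none entered the test only through the group in which it was high. In MI-503 against DMSO 4 of 9 were called higher at an edgeR adjusted p under 0.05, where 22.0% of all 14683 tested genes were, and 1 was called lower, where 29.3% were. Their libraries did not overlap for 5 of 9, beside 50.3% of all tested genes. In the combination against DMSO 7 of 9 were higher (31.7% of all tested genes) and 0 lower (32.8%), and 7 did not overlap (60.5%). In the combination against MI-503 again 7 were higher (23.6% of all) and 0 lower (23.8%), and 7 did not overlap (47.6%). Median log2 fold changes of the 9 were 0.05, 0.48 and 0.46 in the 3 comparisons, beside -0.03, 0.01 and 0.00 over all tested genes. Without replicate 1 of the combination the counts were 8 higher and 0 lower over DMSO, and 7 and 0 over MI-503. The comparisons share libraries, so they do not count as separate observations.

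**Figure D1:**
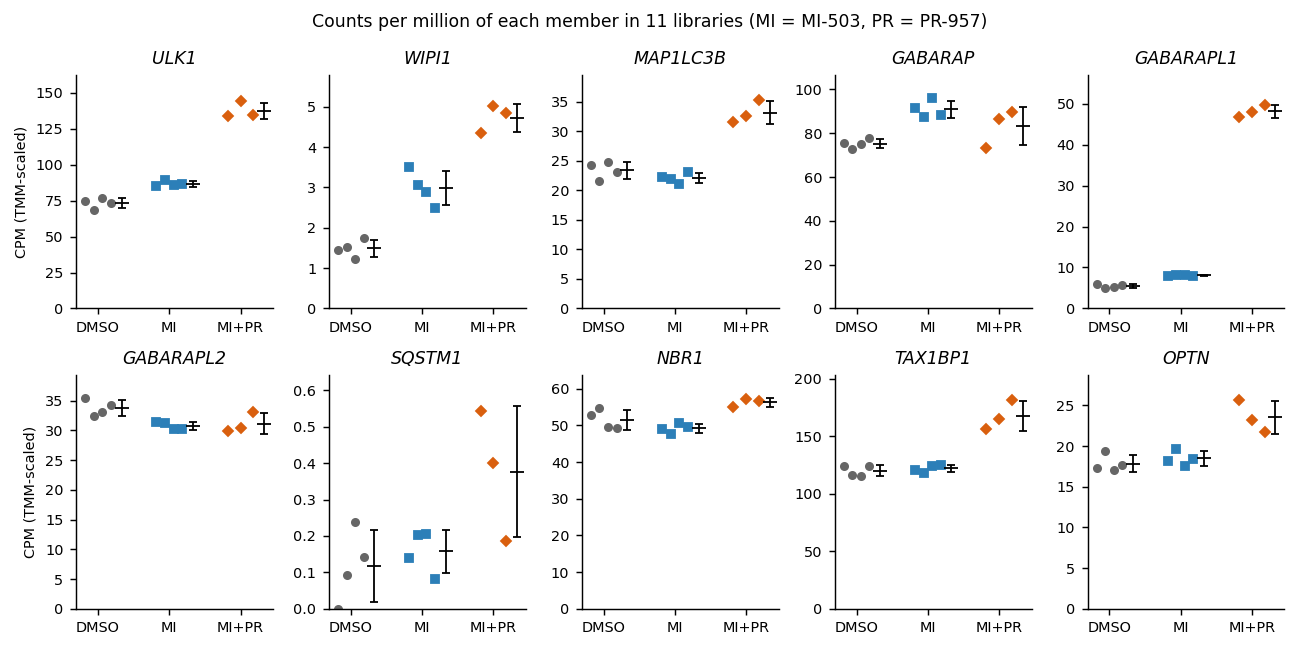
CPM (vertical axis, from 0 and scaled to each gene) of the 10 members in 11 libraries, in replicate order within DMSO, MI-503 (MI) and the combination (MI+PR), with the mean and SD of each group. GABARAPL1 sits at 46.7 to 49.7 CPM in the combination and at 8.23 CPM or less elsewhere, whereas GABARAP, GABARAPL2 and the barely counted SQSTM1 overlap between the combination and MI-503.

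ULK1 (chromosome 12, 131894622 to 131923150, plus strand) encodes the serine/threonine kinase at the start of autophagy. It was measured at 74.7, 68.2, 77.1 and 73.3 CPM in DMSO and at 85.0, 89.4, 85.6 and 86.4 CPM in MI-503. In the combination it reached 134, 144 and 135 CPM. The 3 groups did not overlap. Here and below SE is the standard error of a fitted log2 fold change. The fitted log2 fold change was 0.24 (SE 0.04, edgeR adjusted p = 0.000259) for MI-503 against DMSO and 0.67 (SE 0.05, edgeR adjusted p = 8.65e-09) for the combination against MI-503. Over DMSO the combination was 1.87-fold higher (edgeR adjusted p = 5.61e-11).

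WIPI1 (chromosome 17, 68421281 to 68457524, minus strand) encodes a protein that marks early autophagosomal membranes, and it was the lowest of the tested members. Its 4 DMSO libraries held 1.45, 1.52, 1.23 and 1.76 CPM and its MI-503 libraries 3.52, 3.05, 2.89 and 2.50 CPM. The combination held 4.34, 5.02 and 4.84 CPM, again without overlap between groups. WIPI1 was the 1 tested member of 9 at or past 2-fold with MI-503 alone, at 1.00 on the log2 scale (SE 0.15, edgeR adjusted p = 3.74e-05), where 4.22% of all tested genes were called that much higher. The combination was higher than MI-503 by 0.66 (SE 0.14, edgeR adjusted p = 0.000864) and 3.15-fold higher than DMSO (edgeR adjusted p = 5.12e-08). Of its exon bases 18.4% overlap ARSG, and fragments overlapping both genes had not been counted.

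GABARAPL1 (chromosome 12, 10212877 to 10223128, plus strand) encodes a GABARAP-like Atg8 protein that binds cargo receptors and the ULK1 complex. DMSO libraries held 5.91, 4.96, 5.17 and 5.79 CPM and MI-503 libraries 7.92, 8.23, 8.13 and 7.94 CPM. The combination held 46.7, 47.9 and 49.7 CPM, so that all 3 of its libraries lay far above every other library. The log2 fold change was 0.56 (SE 0.08, edgeR adjusted p = 1.22e-05) for MI-503 against DMSO, and 2.58 (SE 0.07, edgeR adjusted p = 5.57e-14) for the combination against MI-503. The latter stood at the 99.7th percentile of all tested genes, and it was the only one of the 9 members past 2-fold there, where 3.07% of all tested genes were called that much higher. Against DMSO the change was 3.13 (SE 0.07, edgeR adjusted p = 5.86e-15), and GABARAPL1 and WIPI1 were the 2 members past 2-fold, where 8.54% of all tested genes were. Without replicate 1 of the combination the changes were 2.57 and 3.17. No 100-base stretch of its 2208 exon stretches was identical to one in GABARAP, GABARAPL2 or the copy GABARAPL3, which itself had 0, 2 and 1 counts in all of DMSO, MI-503 and the combination.

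MAP1LC3B (chromosome 16, 87392336 to 87404774, plus strand) encodes LC3B, the Atg8 protein most used to follow autophagosomes. It was counted at 24.3, 21.6, 24.9 and 23.1 CPM in DMSO, at 22.3, 22.0, 21.1 and 23.1 CPM in MI-503 and at 31.5, 32.6 and 35.3 CPM in the combination. The DMSO and MI-503 libraries overlapped (log2 fold change -0.08, edgeR adjusted p = 0.261), and the combination lay above both. Its log2 fold change over MI-503 was 0.58 (SE 0.06, edgeR adjusted p = 1.23e-06). The near copy MAP1LC3B2 shares 13.5% of the 2048 exon stretches of MAP1LC3B, which makes the level of MAP1LC3B uncertain. MAP1LC3B2 had 8, 16 and 25 counts in the whole of each group.

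GABARAP (chromosome 17, 7240008 to 7242449, minus strand), the founding member of its subfamily, was measured at 75.3 ± 2.04 CPM with DMSO and at 90.9 ± 3.82 CPM with MI-503 (SD, n = 4 each). All 4 MI-503 libraries exceeded all 4 DMSO libraries, and the log2 fold change was 0.27 (SE 0.06, edgeR adjusted p = 0.000663). The combination libraries held 73.2, 86.6 and 89.6 CPM, with replicate 1 as low as DMSO and the others near MI-503. Its change over DMSO was 0.14 (SE 0.06, edgeR adjusted p = 0.0543) with all libraries and 0.25 (edgeR adjusted p = 8.69e-05) without replicate 1. Over 20 alternative settings this change ran from 0.08 (without combination replicate 4) to 0.25, and 7 of them called it higher. Against MI-503 it was -0.13 (edgeR adjusted p = 0.082), and without replicate 2 or replicate 4 of the combination GABARAP was called lower there (-0.20 and -0.23).

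GABARAPL2 (chromosome 16, 75566379 to 75577881, plus strand), also called GATE-16, changed by no more than 0.14 in size on the log2 scale in any comparison. Its levels were 33.8 ± 1.34 CPM with DMSO, 30.8 ± 0.667 CPM with MI-503 (SD, n = 4 each) and 31.1 ± 1.72 CPM with both drugs (n = 3). MI-503 against DMSO gave -0.14 on the log2 scale (SE 0.05, edgeR adjusted p = 0.0328), a call that was lost under 15 of 20 alternative settings. The combination did not pass the test against DMSO (-0.12, edgeR adjusted p = 0.0618) or against MI-503 (0.02, edgeR adjusted p = 0.838), although leaving out DMSO replicate 2 or combination replicate 4 gave a call below DMSO.

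Levels were compared between genes as CPM per kilobase of merged exon, since longer transcripts give more fragments. On that scale the 4 Atg8 genes summed to 105 ± 3.22 with DMSO, 114 ± 2.49 with MI-503 (SD, n = 4 each) and 131 ± 9.46 with both drugs (n = 3). GABARAP held the largest share of that sum in each group, with 54.3% ± 0.754 in DMSO, 60.3% ± 1.29 in MI-503 and 47.9% ± 1.88 in the combination. The share of GABARAPL1 was 2.25% ± 0.129 in DMSO, 3.06% ± 0.0903 in MI-503 and 15.9% ± 0.705 in the combination. GABARAPL2 held 33.03% ± 0.605, 27.6% ± 0.871 and 24.4% ± 0.910, and MAP1LC3B 10.4% ± 0.499, 9.03% ± 0.488 and 11.8% ± 0.347. GABARAPL1 thus went from the lowest of the 4 genes to the third, above MAP1LC3B in all 3 combination libraries.

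**Figure D2:**
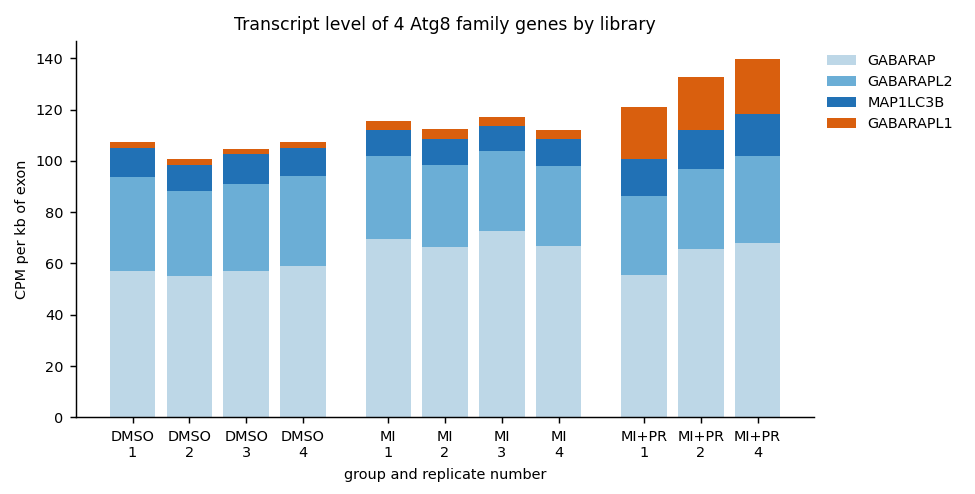
Stacked bars of the transcript level of 4 Atg8 genes in each library, in CPM per kilobase of exon (vertical axis), by group (MI, MI-503; MI+PR, the combination) and replicate number. The GABARAPL1 segment is a thin cap in DMSO and MI-503, at 2.15 to 3.57, and reaches 20.2 to 21.5 in the combination, where it exceeds the MAP1LC3B segment.

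Over the 9 tested members the order of levels per kilobase in DMSO was GABARAP (57.1), GABARAPL2 (34.7), TAX1BP1 (32.7), ULK1 (13.6), MAP1LC3B (10.9), NBR1 (7.94), OPTN (4.92), GABARAPL1 (2.37) and WIPI1 (0.334). Only GABARAPL2 and TAX1BP1 overlapped among neighbors in that order, at 33.3 to 36.4 and 31.6 to 33.9. They overlapped in MI-503 too, with TAX1BP1 the higher by mean. In the combination TAX1BP1 stood at 42.5 to 49.5 and GABARAPL2 at 30.7 to 34.0, without overlap. There GABARAPL1 had moved up past OPTN, NBR1 and MAP1LC3B, to between ULK1 (25.5 ± 1.07) and MAP1LC3B (15.4 ± 0.904), and no neighbors overlapped.

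TAX1BP1 (chromosome 7, 27739373 to 27829767, plus strand) encodes a receptor for ubiquitin-tagged proteins and protein aggregates. Per kilobase it was the most abundant of the receptors tested among the members. It was measured at 124, 117, 116 and 124 CPM in DMSO and 121, 118, 124 and 125 CPM in MI-503, with overlap (log2 fold change 0.02, edgeR adjusted p = 0.732). The combination libraries held 156, 165 and 182 CPM, all above the rest. The combination exceeded MI-503 by 0.46 (SE 0.05, edgeR adjusted p = 1.75e-06) and DMSO by 0.48 (edgeR adjusted p = 2.93e-07).

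OPTN (chromosome 10, 13100082 to 13138308, plus strand) encodes optineurin, a receptor for damaged mitochondria and bacteria. Its values were 17.3, 19.3, 17.0 and 17.7 CPM in DMSO, 18.2, 19.7, 17.6 and 18.4 CPM in MI-503 and 25.7, 23.2 and 21.7 CPM in the combination. DMSO and MI-503 overlapped (log2 fold change 0.05, edgeR adjusted p = 0.545), while the combination lay above both. It exceeded MI-503 by 0.35 (SE 0.07, edgeR adjusted p = 0.000696), and by 0.25 (edgeR adjusted p = 0.00774) without replicate 1, which held the highest value.

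NBR1 (chromosome 17, 43170310 to 43211688, plus strand) encodes a receptor related to SQSTM1 that helps gather ubiquitin-tagged proteins. Its levels were 51.6 ± 2.74 CPM with DMSO, 49.2 ± 1.27 CPM with MI-503 (SD, n = 4 each) and 56.3 ± 1.23 CPM with both drugs (n = 3). The 3 combination libraries, at 54.9, 57.3 and 56.6 CPM, lay just above the highest DMSO library, at 54.8 CPM. The change was 0.19 over MI-503 (SE 0.05, edgeR adjusted p = 0.00393) and 0.12 over DMSO (SE 0.05, edgeR adjusted p = 0.0371). The call over DMSO was lost under 6 of 20 alternative settings, with an edgeR adjusted p of up to 0.111 (without combination replicate 2), and leaving out combination replicate 2 also ended the call over MI-503 (0.14, edgeR adjusted p = 0.0583). Its neighbor NBR2, a noncoding RNA gene, was also higher in the combination than in MI-503 (11.2 ± 0.851 against 8.53 ± 1.06 CPM, log2 fold change 0.38, edgeR adjusted p = 0.00611), but not without combination replicate 2 (0.28, edgeR adjusted p = 0.0565).

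Within the summed level of NBR1, TAX1BP1 and OPTN per kilobase, the order of the shares stayed the same. In every combination library the share of NBR1 was lower, and that of TAX1BP1 higher, than in any DMSO or MI-503 library. TAX1BP1 held 71.8% ± 1.44 in DMSO, 72.4% ± 0.531 in MI-503 and 75.0% ± 1.96 in the combination. NBR1 held 17.4% ± 0.880, 16.5% ± 0.229 and 14.3% ± 0.601, and OPTN between 10.7% and 11.1% of the group means. These shares leave out SQSTM1, whose level is unknown here.

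**Figure D3:**
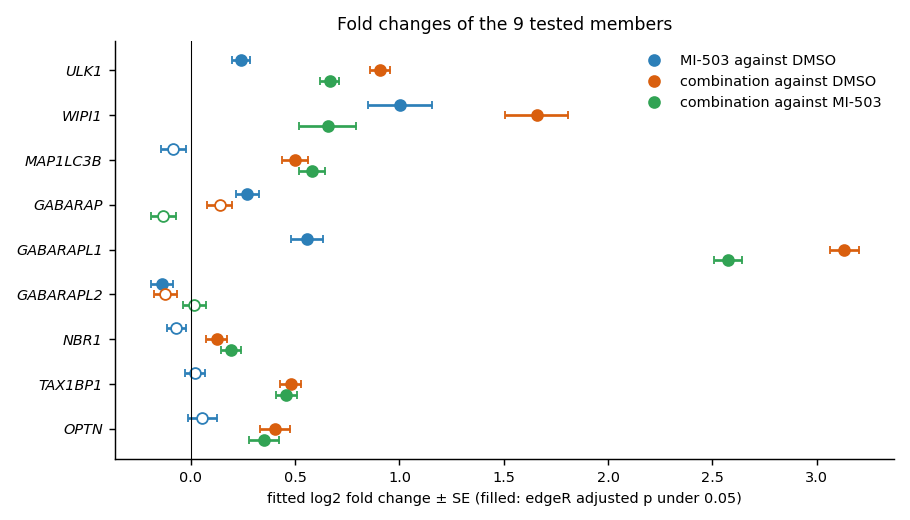
Fitted log2 fold changes (horizontal axis) with their standard errors for the 9 tested members in MI-503 against DMSO, the combination against DMSO and the combination against MI-503, where filled points have an edgeR adjusted p under 0.05. GABARAPL1 stands at 3.13 and 2.58 in the comparisons of the combination, past WIPI1 at 1.66 and ULK1 at 0.91 over DMSO, and GABARAP and GABARAPL2 have open points in both.

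The rest of the pathway was described from lists of 57 further autophagy genes, of which 52 could be tested. Their values are means ± SD over 4 DMSO, 4 MI-503 or 3 combination libraries. In MI-503 against DMSO 10 of these were called higher and 13 lower, with a median log2 fold change of 0.00, close to the background shares of 22.0% and 29.3%. In the combination against DMSO 29 were higher and 10 lower (55.8% and 19.2%, beside 31.7% and 32.8% of all tested genes, median 0.19), and in the combination against MI-503 25 were higher and 5 lower (median 0.15). These are 48.1% and 9.62% of the 52 in the last comparison, beside 23.6% and 23.8% of all tested genes. Without replicate 1 of the combination 26 were higher and 7 lower than in MI-503, and 11 were lower without its replicate 4. In each list below, counts in the combination against MI-503 stand beside these same background shares of 23.6% higher and 23.8% lower. Of the remaining Atg8 genes none could be tested, since MAP1LC3A was at 21 to 32 counts per group, MAP1LC3B2 at 8 to 25 and MAP1LC3C at 0.

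Among partners of ULK1, RB1CC1, a scaffold of the kinase complex, rose 1.27-fold from MI-503 to the combination (46.3 ± 0.643 to 58.6 ± 3.82 CPM, edgeR adjusted p = 8.74e-05). The other 3 of the 4 partners were not called there: ATG13 differed by 0.12, ATG101 by -0.10 and the scarce ULK2 by 0.20 on the log2 scale. ATG13 was called higher without DMSO replicate 2 or combination replicate 1 (0.12 and 0.14), and ATG101 lower without combination replicate 2 (-0.16). Of 7 genes of the phosphoinositide 3-kinase complex 4 were called higher and 0 lower in this comparison with all libraries. The 4 were ATG14, which directs the complex to autophagy (19.4 ± 0.659 to 28.7 ± 1.14 CPM, log2 fold change 0.56, edgeR adjusted p = 6.37e-07), BECN1 (0.23), PIK3C3, its lipid kinase (0.18), and AMBRA1 (0.15). Without combination replicate 1 the complex had 4 higher and 1 lower (UVRAG, -0.18, edgeR adjusted p = 0.0124), without its replicate 2 there were 2 higher and 1 lower, and without its replicate 4 there were 2 lower. PIK3C3 was no longer called without combination replicate 2 (0.10, edgeR adjusted p = 0.197), and AMBRA1 without MI-503 replicate 4 or combination replicates 2 or 4.

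Of 9 genes of WIPI relatives and lipid transfer, 6 were called higher over MI-503 and 8 over DMSO (31.7% of all tested genes), with 0 lower in both. Without combination replicate 1 both counts of higher genes were 7, and 1 gene was lower than in MI-503 without its replicate 2 or its replicate 4. VMP1, a lipid scramblase, went from 59.3 ± 3.46 to 87.3 ± 9.10 CPM (0.56 on the log2 scale, edgeR adjusted p = 1.78e-06). ZFYVE1 (0.52), WDR45, a WIPI relative (0.47), and ATG2A, a lipid transfer protein (0.33, and 0.20 without combination replicate 1), rose as well. In the conjugation machinery, which attaches Atg8 proteins to lipid, 5 of 9 were called higher over MI-503 and 0 lower. Without combination replicate 1 the counts were 4 and 1 (ATG10, -0.36, edgeR adjusted p = 0.0089), without its replicate 2 only 3 were higher, and without its replicate 4 there was 1 lower. ATG4A, a protease that processes Atg8 proteins, rose most (6.07 ± 0.341 to 10.3 ± 1.02 CPM, 0.76 on the log2 scale, edgeR adjusted p = 5.09e-06). ATG4D (0.28), ATG5 (0.22) and ATG4B (0.20) rose less, with ATG4B at 0.13 without combination replicate 1 and ATG5 not called without combination replicate 2 (0.15, edgeR adjusted p = 0.0832), and ATG4A and ATG5 had been lower in MI-503 than in DMSO (-0.30 and -0.28).

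Of 16 receptors outside the members 5 (31.2%) were called higher and 4 (25%) lower in the combination against MI-503, close to the 23.6% and 23.8% of all tested genes, with a median of 0.01. CCPG1, a receptor of the endoplasmic reticulum, rose from 5.91 ± 0.312 to 12.2 ± 0.748 CPM (1.05 on the log2 scale, edgeR adjusted p = 5.63e-07). CALCOCO1, another receptor of that compartment, rose from 28.7 ± 3.45 to 51.7 ± 10.5 CPM (0.84, edgeR adjusted p = 8.29e-06). CALCOCO2, also called NDP52, rose 1.29-fold. FKBP8, a mitochondrial receptor, fell from 412 ± 13.9 to 331.5 ± 9.75 CPM (-0.31, edgeR adjusted p = 1.73e-05).

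TBK1, the kinase that phosphorylates OPTN and SQSTM1 proteins, was lower in MI-503 and higher in the combination. It held 39.9, 35.5, 36.6 and 39.8 CPM in DMSO, 31.5, 30.5, 31.1 and 32.3 CPM in MI-503 and 68.1, 62.1 and 69.7 CPM in the combination. No groups overlapped. Its log2 fold change was -0.28 (SE 0.05, edgeR adjusted p = 0.000361) for MI-503 against DMSO and 1.09 (SE 0.06, edgeR adjusted p = 1.58e-10) for the combination against MI-503.

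Genes for the fusion of autophagosomes with lysosomes showed 3 higher and 1 lower of 6 in the combination against MI-503 (23.6% and 23.8% of all tested genes), and 2 lower without combination replicate 4. TECPR1, which sits on autolysosomes, rose from 38.5 ± 1.89 to 61.6 ± 3.07 CPM (0.67 on the log2 scale, edgeR adjusted p = 9.48e-08), and EPG5, a tether, rose by 0.48. The SNARE protein gene SNAP29 rose by 0.27. VAMP8, another SNARE gene, was lower, at 116 ± 21.2 against 150.3 ± 2.37 CPM (-0.38, edgeR adjusted p = 0.0011). Without combination replicate 1 its change was -0.26 (edgeR adjusted p = 3.26e-05).

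**Figure D4:**
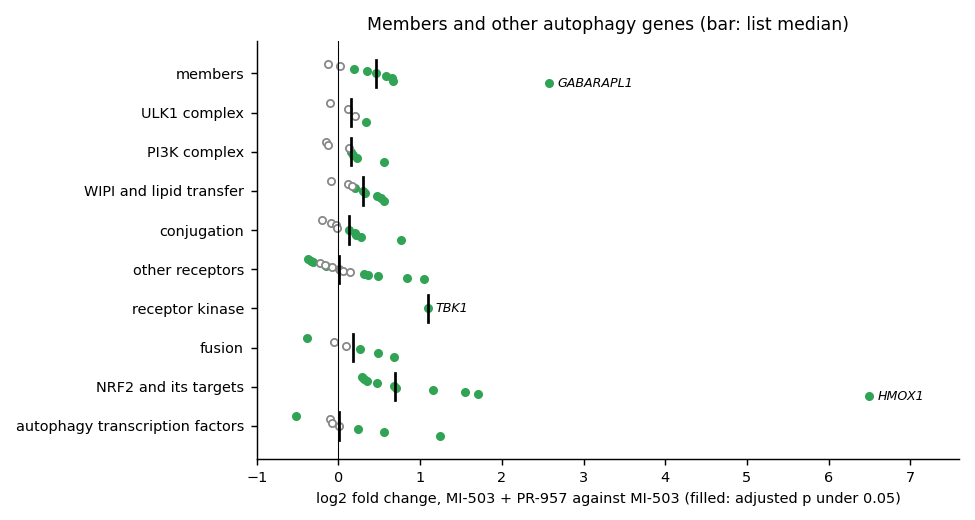
Fitted log2 fold changes of the combination against MI-503 (horizontal axis) for the members and 9 lists of related genes, 1 point per tested gene, filled where the edgeR adjusted p is under 0.05, with a black bar at each list's median. The median of the members is 0.46, GABARAPL1 stands apart from them at 2.58, and HMOX1, in the NRF2 list, lies at 6.50.

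NRF2 and its targets were read beside SQSTM1, because SQSTM1 is known both as a gene activated by NRF2 and as a protein that binds KEAP1. In MI-503 against DMSO 0 of 10 were called higher (22.0% of all tested genes) and 4 lower (29.3%) by edgeR. GCLM (0.14, edgeR adjusted p = 0.076) was called higher once DMSO replicate 4 or any 1 library of the combination was left out. The lower call of KEAP1 was lost without combination replicate 2 (-0.12, edgeR adjusted p = 0.0581). That of GCLC was lost without DMSO replicate 4 (-0.14, edgeR adjusted p = 0.0549). NFE2L2, which encodes NRF2 (-0.12, edgeR adjusted p = 0.0716), was called lower without DMSO replicate 2, DMSO replicate 3 or MI-503 replicate 4. In the combination against MI-503 10 of 10 were higher (23.6% of all tested genes), with a median log2 fold change of 0.69. The 10 include KEAP1 (0.31), the adaptor through which NRF2 is degraded. In the combination against DMSO 8 were higher (31.7%) and 1 lower (32.8%). The 1 lower was NQO1, a quinone reductase, at 32.7 CPM in DMSO, 18.1 in MI-503 and 24.9 in the combination (-0.39 against DMSO, edgeR adjusted p = 0.00404), and TXNRD1, a thioredoxin reductase, was not called (0.12, edgeR adjusted p = 0.0959). GCLM, a subunit of the enzyme that makes the glutathione precursor, went from 31.9 ± 1.16 to 71.0 ± 4.33 CPM (1.16, edgeR adjusted p = 5.74e-10), its partner GCLC rose by 0.68 and SRXN1, a repair enzyme of peroxiredoxins, by 0.71. HMOX1, heme oxygenase 1, had 0.417, 0.407, 0.826 and 0.450 CPM in MI-503 and 7.98, 89.3 and 47.4 CPM in the combination, with replicate 1 lowest. Its log2 fold change was 6.50 (SE 0.69, edgeR adjusted p = 1.03e-06). Over DMSO it was 6.91, and 7.46 without replicate 1. These genes give no value for SQSTM1 itself.

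Transcription factors known to act on autophagy genes were called higher for 3 of 7 and lower for 1 in the combination against MI-503 (23.6% and 23.8% of all tested genes). Without replicate 1 of the combination 3 were higher and 3 lower, the latter FOXO1 (-0.72), MITF (-0.25, edgeR adjusted p = 0.0348) and ATF4 (-0.22, edgeR adjusted p = 0.00203). DDIT3, a factor of the stress response, went from 12.1 ± 1.09 to 28.8 ± 4.50 CPM (1.24, edgeR adjusted p = 3.18e-08). TFE3, a factor for lysosome genes, was at 28.0 ± 0.394 CPM in DMSO, 39.3 ± 1.49 in MI-503 and 57.9 ± 0.714 in the combination, with 0.49 for the first step (edgeR adjusted p = 1.61e-07) and 0.56 for the second (edgeR adjusted p = 5.64e-08). Its relative TFEB rose by 0.24 over MI-503. FOXO1 was 1.40-fold higher in MI-503 than in DMSO and lower in the combination than in MI-503 (-0.52, edgeR adjusted p = 0.000306).

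The genes with a pattern most like that of GABARAPL1 were found by the root mean square difference of log2 CPM, each gene centred on its DMSO mean, over the 11 libraries. Among 10040 other genes that averaged 5 CPM or more the median difference was 1.72. The nearest was NLRP12, a myeloid NLR family gene, at 0.219. It was measured at 3.95, 3.72, 4.32 and 4.51 CPM in DMSO, 7.18, 7.44, 7.39 and 8.19 CPM in MI-503 and 29.8, 38.5 and 36.5 CPM in the combination. CTSD, which encodes the lysosomal protease cathepsin D, followed at 0.369, with 91.4 CPM in DMSO, 146 in MI-503 and 544 in the combination as means. STOX2 (0.424), FAM219A (0.460) and TP53INP1 (0.468), whose protein binds Atg8 proteins, came next. FAM219A differed from the others in that it did not pass the test in MI-503 against DMSO (-0.15, edgeR adjusted p = 0.151, and -0.22 with an edgeR adjusted p of 0.0367 without DMSO replicate 2) and was 3.57 higher on the log2 scale in the combination than in MI-503. No such comparison was made for SQSTM1, which was not tested.

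**Figure D5:**
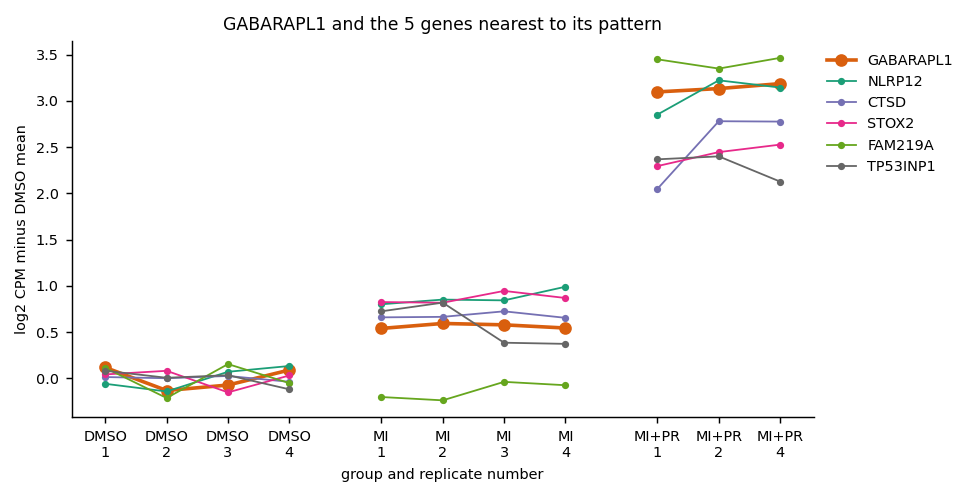
Log2 CPM minus the DMSO mean (vertical axis) of GABARAPL1 and the 5 genes nearest to it in each of 11 libraries (MI, MI-503; MI+PR, the combination), with lines joining values of a gene only as a guide. All 6 genes are between 2.05 and 3.46 in the combination, and FAM219A alone lies below 0 in the 4 MI-503 libraries.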

How the data were processed

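RNA had been taken from MOLM-13 cells, made into TruSeq libraries and sequenced as read pairs. Per the submitters' processing notes, Trimmomatic 0.39, STAR 2.7.10a, featureCounts 2.0.1 and DESeq2 were used. Per the file headers, the authors' raw counts are fragments per gene over hg38 RefSeq exons, unstranded, from filtered alignments. Fragments that map to several places or overlap several genes were left out, which lowers overlapping genes. It may also lower genes on more than 1 contig, which was not tested. The joined count table differed from the single libraries in 0 cells. Deposited tables of the authors' own comparisons, with log2 fold changes and p-values, were not used.

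Counts were fitted with edgeR 4.0.16 (R 4.3.3) in 1 model of all 11 libraries with a mean per group, TMM factors and filterByExpr (minimum count 10, minimum total 15, large n 10), which kept 14683 of 38557 genes. Quasi-likelihood tests were two-sided, p-values were adjusted by Benjamini-Hochberg across every tested gene, and a call needed an adjusted p under 0.05. The biological coefficient of variation was 6.14%. CPM refer to TMM-scaled totals, except for the limits at 3 counts, which use unscaled totals. Log2 CPM used a prior count of 0.5, and SE is the standard error of a log2 fold change. limma 3.58.1 (voom), DESeq2 1.42.0, other scalings, filters and sample sets were alternatives. Coordinates are those of the annotation in the files, and promoters those of RefSeq.

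Members and gene lists were chosen with earlier results of these data known. Named beside the members are copies and neighbors, up to 4 genes per list by smallest adjusted p in the combination against MI-503, and the 5 genes most like GABARAPL1. MAML1, MAP1LC3A, MAP1LC3C and the marker genes were named outside that rule. One further marker is not reported here. GABARAPL1-AS1 has no entry in the annotation. CANX, HNRNPH1, KEAP1, NFE2L2, NQO1, TXNRD1, UVRAG, ATG10, MITF and ATF4 were also named after their values were seen. Groups followed the labels. Same-numbered replicates of MI-503 and the combination correlated, in deviations from the group means, at 0.141, 0.148 and 0.211. Differently numbered pairs of these groups ran from -0.275 to 0.269, so the numbers did not settle a pairing. Same-numbered pairs of DMSO ran from -0.253 to 0.285 with MI-503 and from -0.0596 to 0.111 with the combination. The main fit and its p-values take no account of any pairing. A block on the replicate number over all 3 groups was an alternative.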

Additional observations from a re-analysis of the deposited data

How the results depend on the processing

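Over up to 20 alternatives GABARAPL1, ULK1, WIPI1, MAP1LC3B, TAX1BP1 and OPTN kept their direction and their side of the threshold in all 3 comparisons. WIPI1 had no value under the stricter filter (at least 5 CPM in 3 libraries). The log2 fold change of GABARAPL1 in the combination against MI-503 ran from 2.51 to 2.59. The 1 member called lower in MI-503 against DMSO, GABARAPL2, became 0 with no filter, the stricter filter, upper-quartile or RLE factors, DESeq2, an adjusted p under 0.01 and only the 2 groups compared, and ran from 0 to 1 when single libraries were left out. Members called lower in the combination ran from 0 to 1 in the same way, against DMSO (1 without DMSO replicate 2 or combination replicate 4) and against MI-503 (1 without combination replicate 2 or 4). The change of GABARAPL2 in the combination against MI-503, which was not called in any setting, reversed to -0.0016 with DESeq2, -0.00069 with RLE factors, -0.0075 without combination replicate 2 and -0.0697 without combination replicate 4, and ran from -0.0697 to 0.0258 when single libraries were left out.

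Of the other autophagy genes, 10 called higher in MI-503 against DMSO became 17 with only the 2 groups compared, and 13 called lower became 8 with upper-quartile factors, 7 with the stricter filter and 7 at an adjusted p under 0.01. Those called lower in the combination against MI-503 went from 5 to 11 without combination replicate 4. The cause was not tested. Upper-quartile factors moved higher genes from 42.9% to 54.2% of all calls in MI-503 against DMSO and from 49.1% to 56.3% in the combination against DMSO, and the medians of all genes from -0.03 to 0.03 and from 0.01 to 0.08.

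With the replicate number as a block, no call of a member changed in the combination against MI-503 or in MI-503 against DMSO. In the combination against DMSO 2 changed: NBR1 was no longer called (0.12, edgeR adjusted p = 0.0654) and GABARAP was called higher (0.15, edgeR adjusted p = 0.0468). The other autophagy genes called higher in the combination against MI-503 went from 25 to 24, and 5 stayed the count called lower.

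SQSTM1 passed no filter. With no filter on low counts, over 26817 genes, its log2 fold changes were 0.58 (edgeR adjusted p = 0.557) for MI-503 against DMSO, 1.84 (edgeR adjusted p = 0.00312) for the combination against DMSO and 1.26 (edgeR adjusted p = 0.0441) for the combination against MI-503. They rest on 10, 17 and 36 counts in the 3 groups and are no measure of its transcript level.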
